A study of Mus musculus with 8 samples.

Results

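Mitochondrially encoded RNAs are the transcripts of the small circular genome that every mitochondrion carries. They were taken here as the rows of the expression table whose gene symbol starts with mt-, and 25 of 16091 rows met that rule. The members were thus chosen by name and by no value, but the group was proposed with earlier results of these data known, so the tests below describe these samples and lend no independent support. Of the genes that GENCODE M21 annotates on the mitochondrial genome, 11 of 13 mRNAs, 14 of 22 tRNAs and 0 of 2 rRNAs had a row. The mRNAs mt-Nd3 and mt-Nd4l, both rRNAs and the other tRNAs were not analysed here, so the classes compared are mRNAs and tRNAs.

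The samples were whole corneas of Mus musculus, all treated alike by epithelial debridement, that is removal of the surface epithelium, and collected 12 hours later. All 8 sample titles also hold the word Light, which no label used here explains. There were 4 Opn5-/- corneas (Opn5-null A to D), which lack the gene of the short-wavelength photopigment opsin 5, and 4 wild-type corneas (A to D). The deletion is labelled by genotype alone, with no promoter, Cre or cell type named, and the sources used here state no strain, age or sex. Bulk total RNA was sequenced after depletion of ribosomal and globin RNA, so all cell types of the cornea contributed together. The question was how gene expression in the wounded cornea differs without Opn5. Since Opn5 itself was not analysed here, each genotype is taken from its label.

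The mitochondrial genome is transcribed from both strands into long precursors that carry many genes each. In most of the genome a tRNA lies between neighbouring mRNAs or rRNAs, and RNase P and RNase Z release the mature RNAs by cutting out the tRNAs. The mRNAs encode core subunits of the respiratory chain and of ATP synthase, the rRNAs and tRNAs serve the mitochondrion's own ribosomes, and every other protein of the organelle is encoded in the nucleus. Pieces of mitochondrial DNA have also been copied into nuclear chromosomes, where they are annotated as pseudogenes.

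Values are normalized counts, that is reads divided by 1 size factor per library. Recovered reads per library ranged from 21111715 to 28219234. Krt12, the keratin of the corneal epithelium, measured from 15836 to 189385 normalized counts and Kera, the keratocan of the stroma, from 3847 to 10206, so that the defining markers of the labelled tissue were present in all 8 libraries. Whether each cornea came from its own animal is not stated, and the p-values may therefore reflect technical spread.

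In Opn5-null corneas all 25 mitochondrially encoded genes had a positive log2 fold change, with a median of 0.52 against -0.02 over all genes tested. Of 14 tRNAs 8 rose and 0 fell, and of 11 mRNAs 1 rose, mt-Nd2, and 0 fell. The median log2 fold change was 0.83 for the tRNAs and 0.21 for the mRNAs. The 9 called genes stood against a background in which limma called 18.8% of all genes higher and 13.5% lower at a Benjamini-Hochberg adjusted p below 0.05. For the mRNAs alone, 1 of 11 was below that background share. The difference between the classes was not itself tested. The log2 fold change was also positive for all 24 members that edgeR tested and all 25 in DESeq2, so no member could be called lower in these fits.

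With all 8 libraries in the deposited scaling the sign held for all 25. Without Opn5-null D, mt-Atp6 and mt-Atp8 turned to -0.13 and -0.00021 in that scaling. With upper-quartile scaling mt-Co1 and mt-Cytb turned to -0.064 and -0.013, and as CPM of non-mitochondrial reads to -0.077 and -0.026. Those scalings also moved the median of all genes, to -0.13 and -0.15, and the median of the members to 0.40 and 0.39. The count of called members was 5 with upper-quartile scaling, 5 after quantile normalization, which placed the median of all genes at -0.13, and 4 as CPM of non-mitochondrial reads. It was 3 without wild-type C, 3 without wild-type D, 5 without wild-type A and 5 without Opn5-null D. Over all genes, these scalings, in the order given, called 2527, 2532 and 2483 of 16085 higher, against 3029 in the main fit. Without wild-type C or D, 2374 of 16083 and 2373 of 16084 genes were called higher. Without wild-type A or Opn5-null D, 2225 of 16084 and 2944 of 16073 were. Under the threshold of 0.05, mt-Tc and mt-Ta were called in every alternative in which they were tested. At 0.01 mt-Tc alone was called, against 1818 of 16085 genes called higher.

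**Figure D1:**
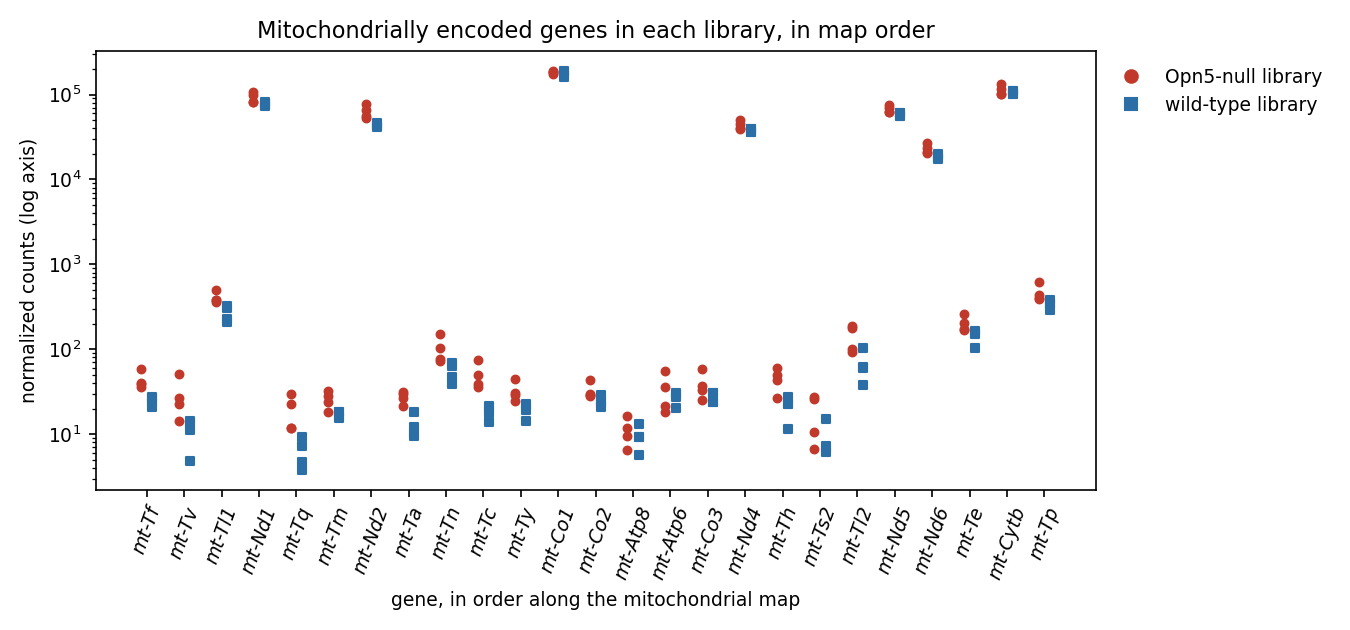
Normalized counts of the 25 mitochondrially encoded genes on a log axis, in order along the mitochondrial map, with 1 circle per Opn5-null library and 1 square per wild-type library. The 7 abundant mRNAs lie far above the tRNAs, and mt-Co2, mt-Atp8, mt-Atp6 and mt-Co3 lie among the tRNAs.

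The tRNAs that rose are shown first by sequence, from the GENCODE M21 transcripts, because each is a separate product of the precursor with its own anticodon. The lines give the gene sequence in DNA letters, 5′ to 3′ in the sense of the tRNA, and capitals mark the anticodon.
mt-Tf: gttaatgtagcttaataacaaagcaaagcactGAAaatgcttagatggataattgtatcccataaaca
mt-Tl1: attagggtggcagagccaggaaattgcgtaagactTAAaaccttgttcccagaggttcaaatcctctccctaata
mt-Tq: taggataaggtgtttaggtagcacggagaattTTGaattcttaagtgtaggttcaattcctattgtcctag
mt-Ta: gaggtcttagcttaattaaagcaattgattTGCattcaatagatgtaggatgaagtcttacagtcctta
mt-Tn: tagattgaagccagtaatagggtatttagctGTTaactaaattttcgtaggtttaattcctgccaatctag
mt-Tc: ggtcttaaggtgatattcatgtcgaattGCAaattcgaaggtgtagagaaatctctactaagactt
mt-Th: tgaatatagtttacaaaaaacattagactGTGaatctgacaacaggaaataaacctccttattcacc
mt-Tl2: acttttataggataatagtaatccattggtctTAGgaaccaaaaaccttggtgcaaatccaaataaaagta

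The tRNA for cysteine, mt-Tc (chromosome M, 5192 to 5257 in GRCm38), had the lowest adjusted p of the group. It measured 35.5, 39.1, 49.4 and 75.7 normalized counts in Opn5-null A to D and 21.5, 13.8, 19.1 and 17.7 in wild-type A to D. Every Opn5-null value lay above every wild-type value. The log2 fold change was 1.37 ± 0.28 (SE, n = 4 per group, adjusted p = 0.00662 by limma), and mt-Tc was the 1 member that passed a threshold of 0.01.

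Its neighbours on the map, mt-Ta for alanine (5018 to 5086) and mt-Tn for asparagine (5089 to 5159), are read from the same strand. For mt-Ta the Opn5-null libraries held 26.3, 21.3, 31.0 and 29.6 normalized counts, and the wild-type libraries 18.4, 10.1, 9.56 and 12.1. The groups did not overlap, and the log2 fold change was 1.08 ± 0.27 (SE, adjusted p = 0.0164 by limma). For mt-Tn the values were 73.7, 77.0, 103 and 151 in Opn5-null and 47.0, 63.4, 39.2 and 68.2 in wild-type. Here too the groups were apart, though wild-type D came close to Opn5-null A, and the log2 fold change was 0.86 ± 0.28 (SE, adjusted p = 0.0441 by limma). The mt-Tn call ended with upper-quartile scaling, after quantile normalization, as CPM of non-mitochondrial reads, and without Opn5-null C, Opn5-null D or any 1 of the wild-type libraries (adjusted p up to 0.114). The last tRNA of that cluster, mt-Ty for tyrosine, had groups that did not overlap but missed the threshold (0.68 ± 0.25, SE, adjusted p = 0.0675 by limma).

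At the start of the map lie mt-Tf for phenylalanine (1 to 68) and mt-Tl1, the leucine tRNA for UUR codons (2676 to 2750), on either side of the rRNA genes. The mt-Tf level was 35.5, 40.3, 39.3 and 58.3 normalized counts in Opn5-null A to D and 23.5, 26.6, 21.03 and 27.1 in wild-type A to D. All Opn5-null values were above all wild-type values, and the log2 fold change was 0.78 ± 0.21 (SE, adjusted p = 0.0245 by limma). The mt-Tl1 level was 383, 357, 380 and 494 in Opn5-null and 319, 305, 209 and 227 in wild-type. Its groups also stood apart, and its log2 fold change was 0.62 ± 0.17 (SE, adjusted p = 0.0243 by limma). The mt-Tf call ended after quantile normalization, as CPM of non-mitochondrial reads and without wild-type A or C (adjusted p up to 0.0671). The mt-Tl1 call ended with upper-quartile scaling, as CPM of non-mitochondrial reads, with a replicate block and without wild-type C or D (adjusted p up to 0.0690).

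The glutamine tRNA, mt-Tq (3772 to 3842), had the largest log2 fold change of the group and the lowest mean level of the tRNAs. It measured 11.8, 22.5, 11.7 and 29.6 normalized counts in Opn5-null A to D, from 9, 19, 14 and 34 reads. In wild-type A to D it measured 9.20, 7.35, 3.82 and 4.67, from 9, 8, 4 and 5 reads. The groups did not overlap, but Opn5-null A and C were close to wild-type A, and at these counts the level is imprecise. The log2 fold change was 1.41 ± 0.40 (SE, adjusted p = 0.0282 by limma), and the call ended with a replicate block and without Opn5-null B, Opn5-null D, wild-type C or wild-type D (adjusted p up to 0.0748).

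The nearby tRNAs mt-Th for histidine (11546 to 11612) and mt-Tl2, the leucine tRNA for CUN codons (11671 to 11741), were called although their groups overlapped. For mt-Th the Opn5-null values were 50.0, 43.9, 26.8 and 60.1 normalized counts and the wild-type values 22.5, 27.6, 11.5 and 22.4. Opn5-null C fell among the wild-type libraries, and the log2 fold change was 1.08 ± 0.34 (SE, adjusted p = 0.0392 by limma). For mt-Tl2 the values were 101, 178, 93.7 and 187 in Opn5-null and 62.4, 105, 38.2 and 59.8 in wild-type. Wild-type B lay above Opn5-null A and C, and the log2 fold change was 1.09 ± 0.35 (SE, adjusted p = 0.0415 by limma). Both calls ended without Opn5-null B, Opn5-null D, wild-type A, wild-type C or wild-type D, that of mt-Th also without Opn5-null A, and that of mt-Tl2 also under all 3 of the scalings that ended the mt-Tn call (adjusted p up to 0.0873 and 0.102).

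The highest tRNA was mt-Tp for proline (15356 to 15422), with 393, 402, 439 and 624 normalized counts in Opn5-null A to D and 340, 382, 293 and 347 in wild-type A to D. Its groups did not overlap, and the log2 fold change, 0.43 ± 0.16 (SE), missed the threshold with adjusted p = 0.0698 by limma. The other tRNAs that were not called, for valine, methionine, glutamate, tyrosine and the AGY codons of serine, had log2 fold changes between 0.50 in mt-Te and 1.26 in mt-Tv. Over the 14 tRNAs, 11 had all Opn5-null libraries above all wild-type libraries, against 20.3% of all genes. Reads per library ran from 4 to 717 for the tRNAs, so several rest on few reads. These reads can come from a mature tRNA or from a precursor that still holds it, and the files do not tell these apart.

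Among the mRNAs, mt-Nd2 was the 1 that rose. It encodes a core membrane subunit of complex I, the NADH dehydrogenase, and lies at 3914 to 4951. It measured 52626, 56141, 66371 and 77452 normalized counts in Opn5-null A to D and 43958, 45912, 43009 and 41433 in wild-type A to D. The wild-type libraries lay within a narrow range and all Opn5-null libraries lay above it. The log2 fold change was 0.52 ± 0.13 (SE, adjusted p = 0.0154 by limma). The call ended without wild-type D, with upper-quartile scaling, after quantile normalization and as CPM of non-mitochondrial reads, with adjusted p up to 0.163.

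The other mRNAs of complex I did not pass the test. For mt-Nd1, another membrane subunit (2751 to 3707), the values were 82279, 82161, 99083 and 107758 in Opn5-null and 79780, 81192, 72302 and 74347 in wild-type. The groups did not overlap, by a small margin, and the log2 fold change was 0.26 ± 0.11 (SE, adjusted p = 0.108 by limma). For mt-Nd5, a proton-pumping subunit (11742 to 13565), the values were 62436, 62639, 68553 and 76268 against 60588, 60506, 55555 and 55710. It showed the same order, with 0.21 ± 0.09 (SE, adjusted p = 0.116 by limma). For mt-Nd6, the 1 mRNA read from the light-strand promoter (13552 to 14070), the values were 21189, 20353, 23323 and 26873 against 19136, 19882, 17581 and 17975. It was nearest to the threshold of the mRNAs that missed it, with 0.29 ± 0.10 (SE, adjusted p = 0.0581 by limma). For mt-Nd4 (10167 to 11544) the values were 40376, 39037, 44617 and 50612 against 39145, 38920, 36182 and 35782. Opn5-null B fell just below wild-type A, so the groups overlapped, and the log2 fold change was 0.21 ± 0.10 (SE, adjusted p = 0.136 by limma).

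The most abundant members, mt-Co1 and mt-Cytb, had the smallest log2 fold changes of the 25 in the deposited scaling, and these turned negative with upper-quartile scaling and as CPM of non-mitochondrial reads, while after quantile normalization they were 0.32 and 0.026. The mRNA for the catalytic subunit of cytochrome c oxidase, mt-Co1 (5328 to 6872), measured 183298, 174904, 182072 and 190801 in Opn5-null A to D and 186312, 188499, 161150 and 170861 in wild-type A to D. The groups were mixed, and the log2 fold change was 0.05 ± 0.09 (SE, adjusted p = 0.705 by limma). The cytochrome b mRNA of complex III, mt-Cytb (14145 to 15288), measured 102225, 101465, 115425 and 133400 against 109661, 109005, 100503 and 100163. Opn5-null A and B lay among the wild-type libraries, and the log2 fold change was 0.10 ± 0.11 (SE, adjusted p = 0.511 by limma).

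**Figure D2:**
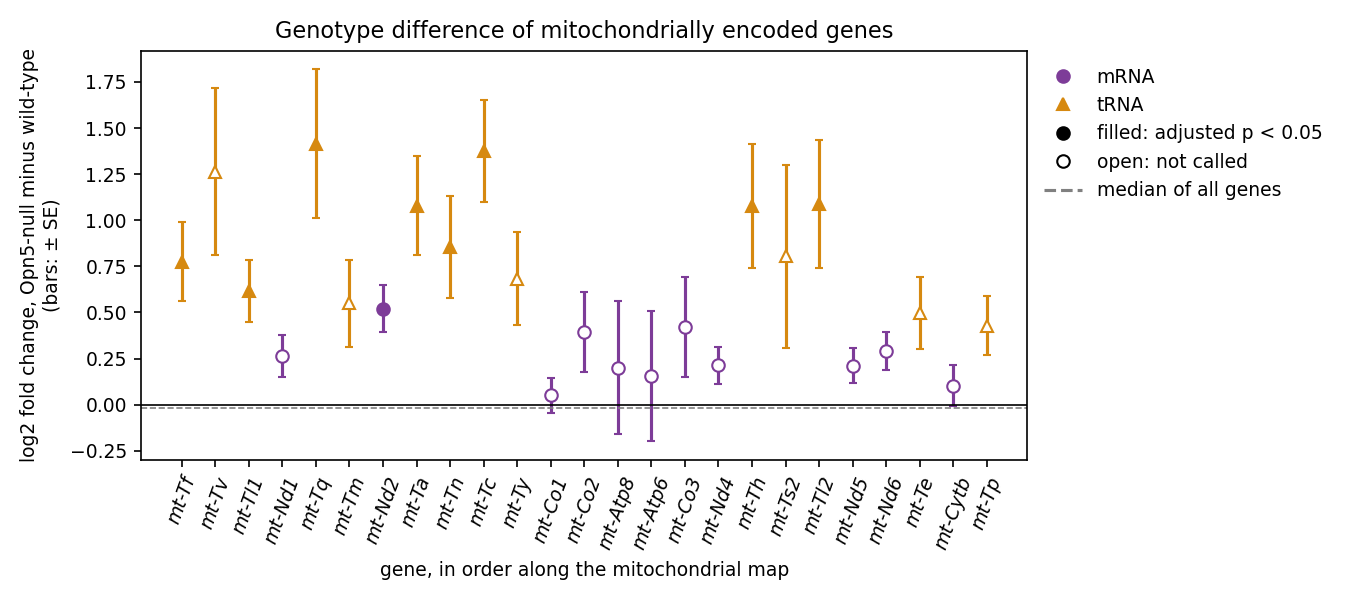
Log2 fold change of each gene, Opn5-null minus wild-type, with its SE from limma, in map order; circles are mRNAs, triangles are tRNAs, filled symbols passed an adjusted p of 0.05 and the dashed line is the median of all genes at -0.02. Of the 11 measured genes before mt-Co1, 7 are filled, and of the 14 from mt-Co1 onwards, 2 are filled. Most genes before mt-Co1 are tRNAs and most from it onwards are mRNAs, and the cut was chosen after the values were seen.

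Set in map order, 7 of the 9 called genes lay among the 11 measured genes that precede mt-Co1, and 2 of 14 lay from mt-Co1 onwards. Over all genes 18.8% were called higher. Apart from mt-Nd1 and mt-Nd2, the measured genes before mt-Co1 are all tRNAs, while most of those from mt-Co1 onwards are mRNAs. The cut thus largely follows the class. Among the tRNAs, mt-Tv, mt-Tm and mt-Ty before the cut and mt-Ts2, mt-Te and mt-Tp after it were not called. Position and class were not told apart by a test. This cut of the map was chosen after the values were seen and was not tested. Of the tRNAs read from the heavy-strand promoter 4 of 7 were called, and of those read from the light-strand promoter 4 of 7. The ratio of light-strand to heavy-strand tRNA reads was 1.27 ± 0.137 in Opn5-null and 1.46 ± 0.172 in wild-type libraries (SD, n = 4), and the groups overlapped. The kit is stranded, but no source used here states the strand setting of the counting, so reads from the opposite strand of a gene cannot be told apart from its own. On opposite strands mt-Nd5 and mt-Nd6 share 14 bases, and on the same strand mt-Atp8 and mt-Atp6 share 43.

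Ratios of reads within a library do not depend on how libraries are scaled to each other. The 14 tRNAs together gave 2.55, 2.70, 2.43 and 3.18 reads per 1000 reads of the 11 mRNAs in Opn5-null A to D. In wild-type A to D the same ratio was 2.00, 2.13, 1.64 and 2.01. All Opn5-null libraries lay above all wild-type libraries, with means of 2.71 ± 0.330 and 1.94 ± 0.214 (SD, n = 4), a ratio of 1.40. As a sum over chosen members, this ratio is a description with no test.

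Some ratios between mRNAs within libraries also differed between the genotypes. These ratios are descriptions with no test, and mt-Nd2 was already the 1 mRNA called higher in these same libraries. There were 0.640, 0.683, 0.670 and 0.719 mt-Nd2 reads per mt-Nd1 read in Opn5-null A to D, and 0.551, 0.565, 0.595 and 0.557 in wild-type A to D. Both genes lie on the same precursor, a short way apart, and the groups did not overlap. Against mt-Co1, mt-Nd2 stood at 0.345 ± 0.0517 in Opn5-null and 0.247 ± 0.0135 in wild-type libraries (SD, n = 4). The ratio of mt-Nd1 to mt-Co1 was 0.507 ± 0.0562 in Opn5-null and 0.436 ± 0.00911 in wild-type libraries (SD, n = 4). Its groups did not overlap either, though Opn5-null A (0.4489) lay just above wild-type C (0.4487). The light-strand mRNA mt-Nd6 gave 0.203 ± 0.00302 reads per mt-Cytb read in Opn5-null and 0.178 ± 0.00378 in wild-type libraries, with every Opn5-null library above every wild-type library. The ratio of mt-Cytb to mt-Co1 overlapped, at 0.618 ± 0.0630 and 0.594 ± 0.0201 (SD, n = 4).

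**Figure D3:**
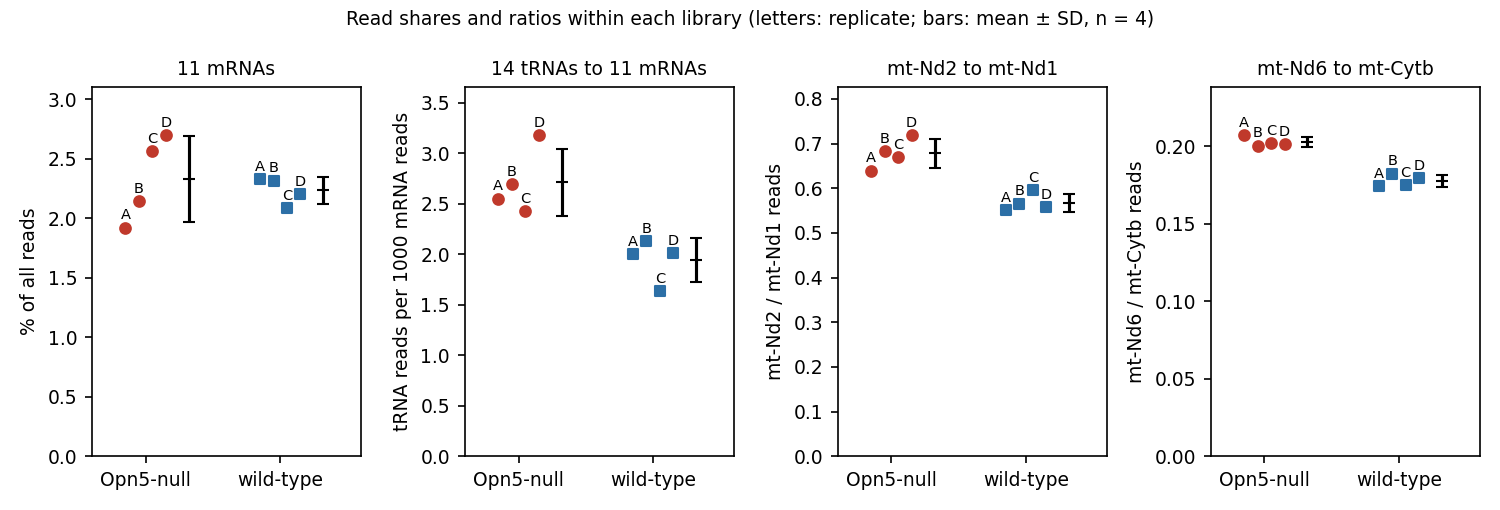
Share of all reads held by the 11 mRNAs, and 3 read ratios, in each library, with letters for the replicate and bars for mean ± SD (n = 4). The mRNA share overlaps between the genotypes, while all 4 Opn5-null libraries lie above all 4 wild-type libraries in the tRNA to mRNA, mt-Nd2 to mt-Nd1 and mt-Nd6 to mt-Cytb ratios. These ratios were not tested.

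The share of all reads taken by the 11 mRNAs did not separate the genotypes. It was 1.92%, 2.15%, 2.56% and 2.70% in Opn5-null A to D and 2.33%, 2.32%, 2.09% and 2.21% in wild-type A to D, and no Wilson 95% interval reached more than 0.00622 percentage points to either side. Opn5-null A held the lowest and Opn5-null D the highest share of the 8 libraries. The tRNA share, in reads per 1000000 reads (RPM), was 49.0, 57.8, 62.2 and 85.9 RPM in Opn5-null and 46.6, 49.3, 34.2 and 44.4 in wild-type, and Opn5-null A fell just below wild-type B. Their Wilson 95% intervals reached at most 3.42 RPM to either side, and all these intervals cover counting error only. In normalized counts the tRNA sum was 1.59-fold higher in Opn5-null libraries with no overlap, and the mRNA sum 1.13-fold higher with overlap. A read stood for 1.32 and 1.19 normalized counts in Opn5-null A and B, for 0.837 and 0.871 in Opn5-null C and D, and for 0.919 to 1.02 in the wild-type libraries, so the deposited scaling moved shares and levels apart most in the Opn5-null group.

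Opn5-null D was the highest Opn5-null library for 21 of the 25 genes, and wild-type C the lowest wild-type library for 17 of them. The same library, Opn5-null D, stood lowest for markers of the corneal epithelium. Of 8 such markers 0 rose and 2 fell, Krt15 and Tkt, and their mean log2 difference from the wild-type mean was -1.27, -0.52, -0.46 and -2.69 in Opn5-null A to D, against -0.25 to 0.31 in the wild-type libraries. Of 8 neutrophil markers 7 rose, and their mean was 2.34, 1.79, 0.81 and 2.28 in Opn5-null A to D, against -0.32 to 0.51. Of 8 macrophage markers 6 rose, with means from 1.13 to 1.88 against -0.07 to 0.08. Of 5 keratocyte markers 2 rose, with means from 0.25 to 1.01 against -0.10 to 0.09, highest in Opn5-null D. Of 5 endothelial markers 0 rose and 1 fell, Slc4a11 (log2 fold change -1.51, adjusted p = 0.00564 by limma), and their means ran from -0.74 to 0.34 against -0.08 to 0.04. Lens markers fell in 4 of 5 cases, and their means of -2.22 to -1.15 lay below the wild-type range of -0.84 to 0.91. Skeletal muscle markers fell in 1 of 5 cases, Myh2, which was at 0 in Opn5-null A, C and D, and red blood cell markers in 1 of 2. These marker counts stand against 18.8% of all genes called higher and 13.5% lower. The part of these cell types in the mitochondrial values was not tested, and in whole tissue fewer cells of a type and less RNA per cell cannot be told apart.

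A list of structural RNAs was also looked at, since rRNA depletion acts on the same libraries. It also holds Neat1, which is neither ribosomal nor globin RNA, so the list does not measure depletion alone. Of its 7 rows 0 rose and 2 fell, against 18.8% of all genes called higher and 13.5% lower. Gm26917 held 1328 ± 353 normalized counts in Opn5-null against 5524 ± 1653 in wild-type libraries (SD, n = 4), and its log2 fold change was -2.05 (adjusted p = 0.000638 by limma). The nuclear non-coding RNA Neat1 had a log2 fold change of -0.78 (adjusted p = 0.0159 by limma). The mean of the list was 0.20, -0.95, -1.03 and -0.47 in Opn5-null A to D against -0.50 to 0.24 in the wild-type libraries. Its part in the mitochondrial values was not tested.

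The levels of the 11 mRNAs fell into separate tiers, in both genotypes. Per kilobase of gene, mt-Co1 held 118297 ± 4214 normalized counts in Opn5-null against 114373 ± 8419 in wild-type libraries (SD, n = 4). After it came mt-Cytb with 98889 ± 13074 and 91637 ± 4550, and mt-Nd1 with 96991 ± 13315 and 80361 ± 4449. Next were mt-Nd2 with 60836 and 41983, mt-Nd6 with 44190 and 35922, mt-Nd5 with 36992 and 31847, and mt-Nd4 with 31684 and 27219. Over the wild-type libraries no neighbours in this order overlapped, while over the Opn5-null libraries all neighbours overlapped except mt-Nd1 and mt-Nd2. The full gene length was used throughout, although 876 of the 1378 bases of mt-Nd4 have an identical nuclear copy, described below. The place of mt-Nd4 in this order is therefore uncertain. Bases 1063 to 1545 of mt-Co1 have a nuclear copy with 1 mismatch, so its level is uncertain as well. The remaining mRNAs, mt-Co2, mt-Co3, mt-Atp6 and mt-Atp8, lay between 27.1 and 81.1 normalized counts per kilobase in all 8 libraries. These 4 together made up 0.0145% to 0.0240% of the reads of the 11 mRNAs, although they come from the same precursor as mt-Co1 and mt-Nd4.

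The low mRNAs share a position. They lie wholly within the stretch of the mitochondrial genome, 6390 to 11042, that is spanned by the matches of 7 pseudogenes on chromosome 1 at 24611535 to 24616197 (GRCm38), each with at most 1 mismatch. The bases between these pseudogenes, which take in most of mt-Atp8 and the tRNAs of the stretch, were not compared with chromosome 1, since transcripts alone were searched. Within the stretch 4 of 6 mRNAs and 0 of 5 tRNAs had a row, while outside it or partly inside it all 7 mRNAs and 14 of 17 tRNAs had one. The coding sequence of mt-Co2 matched the pseudogene Gm28661 over 681 bases with no mismatch, mt-Atp6 matched Gm10925 over 678 and mt-Co3 matched Gm28437 over 783. For mt-Nd4, which crosses the edge of the stretch, the first 876 of 1378 bases matched Gm28439 with no mismatch. The end of mt-Co1, bases 1063 to 1545, matched Gm29216 with 1 mismatch. The best match of mt-Atp8 among annotated nuclear transcripts had 81.4% identity over 167 bases, and mt-Atp8 lies between mt-Co2 and mt-Atp6 inside the stretch.

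The first 100 bases of mt-Co2 are shown with those of its pseudogenes on chromosome 1 (Gm28661) and chromosome 2 (Gm13341), because they show how far the copies differ from the gene. Bases 529 to 628 of mt-Nd2, the mRNA that rose, follow with those of its closest annotated copy, Gm13339 on chromosome 2. Capitals mark the bases at which a copy differs from the mitochondrial gene, 0 in Gm28661, 2 in Gm13341 and 2 in Gm13339. The sequences are from the GENCODE M21 transcripts, in the sense of the gene.
mt-Co2: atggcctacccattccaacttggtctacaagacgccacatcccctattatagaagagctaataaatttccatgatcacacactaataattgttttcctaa
Gm28661: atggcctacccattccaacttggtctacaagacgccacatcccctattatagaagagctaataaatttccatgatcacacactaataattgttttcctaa
Gm13341: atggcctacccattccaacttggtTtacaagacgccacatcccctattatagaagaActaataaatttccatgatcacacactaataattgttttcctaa
mt-Nd2: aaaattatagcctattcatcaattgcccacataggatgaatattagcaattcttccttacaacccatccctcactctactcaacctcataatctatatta
Gm13339: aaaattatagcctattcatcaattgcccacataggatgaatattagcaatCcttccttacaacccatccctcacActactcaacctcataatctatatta

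Reads of mt-Co2, mt-Atp6 and mt-Co3 cannot be told apart from reads of their chromosome 1 copies, and the sources used here do not state how the authors counted reads with several placements. The levels and changes of these genes and of the part of mt-Nd4 that matches Gm28439 are therefore uncertain, and for mt-Atp8 this was not tested. Bases 1063 to 1545 of mt-Co1 match Gm29216 with 1 mismatch, so the level of mt-Co1 and the ratios to it may be affected too. Over its last 510 bases mt-Nd2 matched Gm13339 at 96.7% with 17 mismatches, and Gm13339 was not analysed here. The longest matches of the other abundant mRNAs among annotated nuclear transcripts had 97.6% identity for mt-Co1 (Gm13340), 93.6% for mt-Nd6, 92.9% for mt-Cytb, 92.3% for mt-Nd5 and 76.6% for mt-Nd1.

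None of the 4 low mRNAs passed the test between the genotypes. For mt-Co2, a subunit of cytochrome c oxidase, the values were 43.4, 28.4, 29.3 and 29.6 normalized counts in Opn5-null A to D and 24.5, 23.0, 21.03 and 29.0 in wild-type A to D. The groups overlapped, and the log2 fold change was 0.40 ± 0.22 (SE, adjusted p = 0.189 by limma). For mt-Co3, of the same complex, the values were 25.004, 36.7, 33.5 and 58.3 against 30.7, 23.9, 23.9 and 30.8. Opn5-null D stood above the rest and Opn5-null A among the wild-type libraries (0.42 ± 0.27, SE, adjusted p = 0.263 by limma). For mt-Atp6, a subunit of ATP synthase, the values were 18.4, 21.3, 36.0 and 54.8 against 27.6, 29.4, 20.1 and 30.8. For mt-Atp8, another subunit of ATP synthase, they were 6.58, 9.48, 11.7 and 16.5 against 13.3, 9.19, 5.74 and 9.34. The groups overlapped in both, with Opn5-null D highest, and the adjusted p = 0.764 and 0.699 by limma. These genes had 5 to 67 reads per library.

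The chromosome 1 copies had low levels too. Gm28661 averaged 41.7 normalized counts in Opn5-null against 29.9 in wild-type libraries, Gm10925 79.8 and 62.7, and Gm28437 112 and 60.3. Among the 7 chromosome 1 copies Gm28438, which matches mt-Nd3 with 1 mismatch, was the 1 called higher, against 18.8% of all genes. It held 410 against 218 normalized counts, with a log2 fold change of 0.89 (adjusted p = 0.0467 by limma) and groups that overlapped. The other copies missed the threshold, with adjusted p from 0.0542 in Gm28437 to 0.931 in Gm29216 by limma.

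**Figure D4:**
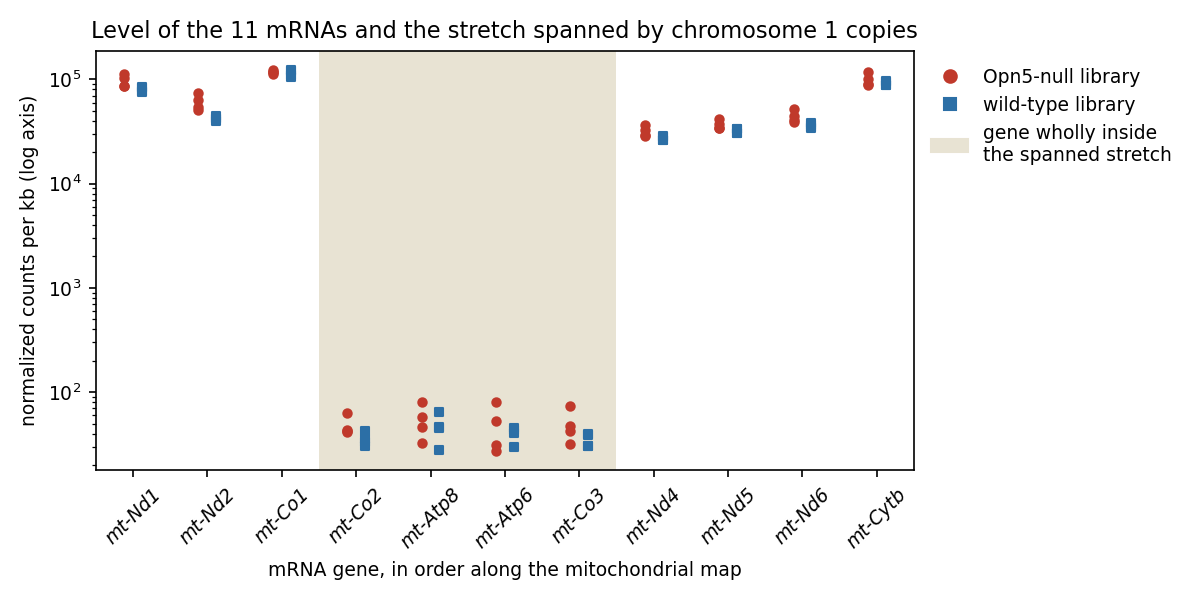
Normalized counts per kilobase of the 11 mitochondrial mRNAs on a log axis, in map order, with 1 circle per Opn5-null library and 1 square per wild-type library; shading marks genes wholly inside the stretch spanned by the matches of chromosome 1 pseudogenes. The 4 shaded genes lie between 27.1 and 81.1 normalized counts per kilobase, and the others lie at 25967 or above.

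Nuclear genes whose products work with these RNAs were counted beside them. Their counts stand against the 18.8% of all genes called higher and the 13.5% called lower. Of 82 nuclear-encoded subunits of the respiratory chain and ATP synthase, 1 rose and 4 fell, with a median log2 fold change of -0.02. In complex I, Ndufv1 and Ndufv3, of the NADH-binding module, fell by 0.30 and 0.26 on the log2 scale (adjusted p = 0.0163 and 0.0243 by limma). In complex II the catalytic subunit gene Sdha fell by 0.27 (adjusted p = 0.0145 by limma). In complex IV, Cox7b held 3735 ± 530 normalized counts in Opn5-null against 1881 ± 48.0 in wild-type libraries (SD, n = 4) and rose by 0.98 on the log2 scale (adjusted p = 0.000416 by limma). Cox6b2, an isoform gene with 9.66 and 21.2 normalized counts, fell by 1.13 (adjusted p = 0.0402 by limma). In complexes III and V none of the 9 and 18 genes was called, and the lowest p belonged to Uqcrc1 (log2 fold change -0.24, adjusted p = 0.0734) and Atp5a1 (-0.22, adjusted p = 0.0501 by limma).

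Genes of mitochondrial transcription and DNA replication had 0 calls among 10 and 8 tested, against 18.8% of all genes called higher and 13.5% lower. The lowest p was that of Mterf3, a regulator of mitochondrial transcription (0.25, adjusted p = 0.0929 by limma), and of the exonuclease gene Mgme1 (-0.41, adjusted p = 0.0587 by limma). Among 14 genes of RNA processing, which include the nucleases that cut out the tRNAs, 0 rose and 1 fell, Fastkd3 (-0.36, adjusted p = 0.0374 by limma). Elac2, the gene of mitochondrial RNase Z, had a log2 fold change of -0.10 (adjusted p = 0.411 by limma), and Trmt10c and Hsd17b10, of the RNase P complex, had 0.02 and -0.06 (adjusted p = 0.835 and 0.740). Among 7 genes of RNA stability and decay 1 rose, Pnpt1, which encodes the polynucleotide phosphorylase that takes part in mitochondrial RNA decay. Pnpt1 held 1859 ± 200 normalized counts in Opn5-null against 1465 ± 74.3 in wild-type libraries (SD, n = 4), and its log2 fold change was 0.34 (adjusted p = 0.0242 by limma). In mitochondrial biogenesis 1 of 7 rose, Gabpb1, a subunit gene of the nuclear respiratory factor NRF-2 (0.85, adjusted p = 0.00431 by limma).

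Among 22 genes that charge mitochondrial tRNAs with amino acids 0 rose and 5 fell, with a median of -0.13. Over all genes 18.8% were called higher and 13.5% lower. The methionyl-tRNA synthetase gene Mars2 had a log2 fold change of -0.73 (adjusted p = 0.000886), Gatb, of the enzyme that forms glutaminyl-tRNA, of -0.43 (adjusted p = 0.0483), and the isoleucyl-tRNA synthetase gene Iars2 of -0.42 (adjusted p = 0.00396, all by limma). The mean of the list was -0.25 to -0.10 in the Opn5-null and -0.03 to 0.02 in the wild-type libraries. Chosen after the tRNA values were seen, the synthetase genes for cysteine (Cars2), alanine (Aars2), phenylalanine (Fars2), leucine (Lars2) and histidine (Hars2), whose tRNAs rose, had log2 fold changes of -0.10, 0.04, 0.01, 0.04 and -0.18, and none was called. The asparaginyl-tRNA synthetase gene Nars2 fell by 0.42 on the log2 scale (adjusted p = 0.0129 by limma).

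Genes that modify mitochondrial tRNAs and rRNAs had 0 of 20 higher and 2 lower, Cdk5rap1, which modifies mitochondrial tRNA (-0.55, adjusted p = 0.0387), and the rRNA methyltransferase gene Mrm1 (-0.46, adjusted p = 0.0158 by limma). Of 78 mitochondrial ribosomal protein genes 7 rose and 3 fell, with a median of 0.01. Both lists stand against 18.8% of all genes called higher and 13.5% lower. The largest rises were those of Mrps28, Mrpl33 and Mrpl52, at 0.68, 0.60 and 0.45, and the falls were those of Mrpl14, Mrpl9 and Mrps26, at -0.56, -0.51 and -0.39 on the log2 scale. The differences between these lists and the mitochondrially encoded genes were not tested.

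The authors' deposited table, from their own comparison, called 14 of the 25 genes higher, 11 tRNAs and 3 mRNAs, against 21.9% of all genes. DESeq2 on the recovered reads gave the members the same log2 fold changes, such as 1.49 for mt-Tc and 0.54 for mt-Nd2 in both. Its count of 14 is therefore not a separate result. The 3 mRNAs in the authors' deposited table were mt-Nd2, mt-Nd5 and mt-Nd6. Run on the recovered reads, the edgeR quasi-likelihood test called 10 of the 24 members it tested, 9 of them tRNAs, with mt-Tv for valine added (adjusted p = 0.0458 by edgeR). Over all genes edgeR called 3004 of 15936 higher. The mt-Tv values were 14.5, 22.5, 26.8 and 51.4 normalized counts in Opn5-null A to D and 14.3, 13.8, 4.78 and 11.2 in wild-type A to D. Opn5-null A lay just above wild-type A, and Opn5-null D stood well above the other libraries.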

How the data were processed

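Whole-cornea total RNA from 8 samples, 4 per genotype by the genotype label, was measured. The labels' protocols name depletion of ribosomal and globin RNA and a stranded kit, and the submitters' processing notes name RSEM 1.3.1. No source used here states the aligner, build, annotation or strand setting. The authors deposited normalized signal values, which are counts over a size factor: after division by the smallest value above 0 of the column, 100% were whole within 0.001. Log2 fold changes and p-values in the authors' deposited table come from their own comparison, per the file headers.

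The main test was limma 3.58.1 (R 4.3.3; intensity trend, robust variance) on log2(value + 1), which understates changes of low genes, over the 16085 genes that reached 1 in at least 4 libraries; all 25 members passed. Adjusted p-values are Benjamini-Hochberg values over all genes, threshold 0.05. Alternatives were other scalings (TMM among them), filters, a pseudocount of 0.1, a replicate block by letter, each library left out, and edgeR 4.0.16 and DESeq2 1.42.0 on recovered reads; shares with a library left out were added after seeing the data. The fit was first tested on simulated data. Libraries within a genotype all differed pairwise by more than sampling noise (chi-square per gene 10.3 to 196).

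Identifiers matched GENCODE M21 (GRCm38) for 16055 of 16091; copies were found with BLAST+ 2.17.0 among its transcripts. Members, lists and the naming rule were chosen with earlier results of these data known. The rule named every mRNA, each tRNA that was called or had the highest or lowest class mean, and up to 3 called genes per direction and list, or the gene with the lowest p where none was called; genes outside it (mt-Tv, mt-Te, mt-Ty, single nucleases and synthetases, pseudogenes) were named after their values were seen.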

Additional observations from a re-analysis of the deposited data

Results flagged for a closer look

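In 72 groups of 4 libraries, 25 genes and 11 sums or ratios in each genotype, 3 held a library whose gap to its nearest neighbour took up more of the group's range than Dixon's critical value allows at a 95% level. Chance flags about 1 in 20 such groups. The mt-Ts2 tRNA measured 14.9 normalized counts in wild-type D, from 16 reads, against 6.14 to 7.35 in the other wild-type libraries. The mt-Co2 mRNA, whose reads cannot be told apart from those of its chromosome 1 copy, measured 43.4 normalized counts in Opn5-null A, from 33 reads, against 28.4 to 29.6 in the other Opn5-null libraries. The 14 tRNAs together summed to 2109 normalized counts in Opn5-null D, against 1388 to 1454 in the other Opn5-null libraries. That sum was above the highest wild-type sum, 1159, in every Opn5-null library.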

How the results depend on the processing

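The number of members called higher, 9 with limma, was 9 with TMM scaling, with no filter and with a pseudocount of 0.1, 7 with a filter at 1 CPM in 4 libraries and 10 with edgeR. It was 5 with upper-quartile scaling, 5 after quantile normalization, 4 as CPM of other reads, 14 with DESeq2 and 1 at an adjusted p below 0.01. Over all genes, 3029 of 16085 were called higher with limma, 2763 of 14175 with the CPM filter and 3004 of 15936 with edgeR. DESeq2 called 3516 of 16091 higher, and limma at 0.01 called 1818 of 16085. Upper-quartile scaling, quantile normalization and CPM of other reads called 2527, 2532 and 2483 of 16085. With 1 library left out the member count ranged from 3 to 9, and the count over all genes from 2225 to 3365. The number of members called lower was 0 under every alternative. Under the left-out libraries that lowered the count most, mt-Tc, mt-Nd2 and mt-Ta were called without wild-type C, and mt-Tc, mt-Ta and mt-Tf without wild-type D. The causes were not tested.

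With the replicate block by letter 7 members were called, against 2545 of 16085 genes called higher. The letters were not shown to pair the samples: deviations of same-lettered libraries correlated at -0.16, -0.13, 0.14 and 0.13 for A to D, and 1 of 8 libraries correlated best with its own letter.

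Of 442 log2 fold changes of single members under alternatives, 436 were positive and 387 kept their direction and their side of the threshold, with 41 losing a call, 8 gaining one and 6 reversed. The reversed values, none of them called, were -0.064 for mt-Co1 and -0.013 for mt-Cytb with upper-quartile scaling, -0.077 and -0.026 as CPM of other reads, and -0.13 for mt-Atp6 and -0.00021 for mt-Atp8 without Opn5-null D, where leaving out 1 library gave up to 0.38 and 0.40. Calls held in 14 of 18 alternatives for mt-Nd2 and mt-Tf, 13 for mt-Tl1, 12 of 17 for mt-Tq, 12 of 18 for mt-Th, 10 for mt-Tl2 and 9 for mt-Tn. Depth limits the tRNAs and the 4 low mRNAs, which had as few as 4 and 5 reads in a library.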
